A study of Mus musculus with 6 samples.

Results

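The genes described here are the potassium channel genes on the array, taken as every probe set whose single gene symbol begins with Kcn. The rule found 167 of 45101 probe sets, and they report on 84 genes of the 18193 named by a single symbol. It takes in 81 protein-coding genes, which encode pore-forming channels and accessory subunits, and 3 non-coding RNAs named after a neighbouring channel gene (Kcnq1ot1, Kcnmb4os1 and Kcnmb4os2). Of these genes 38 had 1 probe set and 46 had several, up to 6. A gene's brightest probe set on average over all arrays stands for it, and its other probe sets are set beside it where they lie above background.

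RNA was measured on 6 Affymetrix arrays. All material came from ICR mouse embryos of 3 to 4 somites, 8.5 days post coitum, before circulation begins. The 3 groups of 2 arrays each were cells labelled as Flk1-positive (Flk1 is the product of Kdr, a VEGF receptor carried by endothelial cells and their precursors), Flk1 KO embryos, which lack that receptor, and wild-type (WT) embryos. The embryo groups were the embryo proper. The design text lists Flk1+/GFP embryos as a source, while the labels of the cells give no allele and no method of selection. A reporter allele and the group cannot be told apart. No label ties the arrays to separate animals, so every p-value rests on a spread between samples that may be technical. The number of arrays limits the precision.

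Potassium channels let potassium leave or enter the cell along its gradient and so set the resting membrane potential. In endothelium an outward potassium current hyperpolarises the cell and favours calcium entry, in heart muscle potassium currents end the action potential, and in red cells a calcium-activated channel controls cell volume. The family falls into voltage-gated channels with their accessory subunits, inward rectifiers (Kcnj), background channels with a pair of pore domains in each subunit (Kcnk, called tandem-pore-domain channels here), and channels opened by intracellular calcium or sodium.

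Kdr followed the labels, with signal values 3309 and 3328 in Flk1-positive cells, 29.5 and 63.8 in Flk1 KO embryos, and 544 and 546 in WT embryos. All 10 endothelial markers were above background in Flk1-positive cells. Their summed signal was 41413 to 41467 in Flk1-positive cells, 927 to 987 in Flk1 KO embryos and 3053 to 3096 in WT embryos. Blood cell markers were high in Flk1-positive cells too: the 7 primitive erythroid markers represented on the array summed to 43518 to 45156 there, 271 to 405 in Flk1 KO embryos and 624 to 1172 in WT embryos. The 8 macrophage and megakaryocyte markers summed to 5735 to 5900, 495 to 741 and 750 to 788 in the same order of groups. Cardiomyocyte markers (10 genes) ran the other way, from 1863 to 2155 in Flk1-positive cells, 27765 to 41022 in Flk1 KO embryos and 20416 to 21203 in WT embryos. The endothelial markers Cdh5, Pecam1, Tie1, Emcn, Esam, Cldn5 and Erg were not above background in Flk1 KO embryos, and the cardiomyocyte markers Myh6, Myl3 and Ttn were not in Flk1-positive cells. No marker of these lists lay at the floor of the scale on any array. How far these cell types contribute to the potassium channel values was not tested.

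Many of the channel genes were not above background on these arrays. The background level, a signal of 57.4, was taken from 80 probe sets of olfactory and vomeronasal receptors, which serve as genes without expression here, as their 95th percentile. Group means lay above it for 59 of the 167 probe sets and for 44 of the 84 genes (52.4%) in at least 1 group, against 71.7% of all named genes. By group, 27 of the 84 genes were above background in Flk1-positive cells, 29 in Flk1 KO embryos and 32 in WT embryos, and 16 were above it in all 3. Another 8 were above it only in the Flk1-positive group mean (Kcna6, Kcnip1, Kcnj15, Kcnn4, Kcnq1, Kcnq5, Kcns2 and Kcns3), and 9 in both embryo groups but not in Flk1-positive cells (Kcna1, Kcnab1, Kcng1, Kcnip2, Kcnk1, Kcnk2, Kcnn2, Kcnt1 and Kcnt2). Kcna2, Kcnj12, Kcnk7 and Kcnmb2 were above it only in WT embryos, Kcnab2, Kcnj4, Kcnk16 and Kcnmb1 only in Flk1 KO embryos, and Kcne3, Kcnj14 and Kcnn1 in Flk1-positive cells and WT embryos. These lists are placements against a threshold, not tests. The 40 genes below background in every group include Kcnj8 and Kcnj2, inward rectifiers of vascular muscle and endothelium, Kcnma1, the large-conductance calcium-activated channel, Kcnn3, a small-conductance one, and the background channel Kcnk3. The signal of Kcnj8 was 20.7 and 2.62 in Flk1-positive cells, 15.4 and 7.13 in Flk1 KO embryos, and 17.0 and 2.87 in WT embryos, and Kcnma1 stayed at 51.3 or less on every array. Its 5 probe sets were all below background in every group.

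The first comparison, Flk1-positive cells over WT embryos, asked which channels were higher or lower in those cells. All 10 endothelial and all 7 primitive erythroid markers were called higher there, and 6 of 8 macrophage and megakaryocyte markers. Ptprc had no call, and neither had Cx3cr1, which was below background in every group. The channel calls thus describe cells with markers of endothelium and of blood. Kcne3, Kcnk6, Kcnn4 and Kcnj15 were the genes with the largest rises, each well above its WT level, and Kcnk1, Kcng1 and Kcnh2 were among those that fell. Each difference is in log2 units after adding 21.61 to the signal, ± SE from limma, and so understates changes of dim genes. A difference counts as called at a Benjamini-Hochberg adjusted p under 0.05 over all 34621 probe sets tested. Where the dimmer group mean was not above background, the fold is given as a lower bound against the background level. Of the 84 genes, 65 passed the filter on mean signal and were tested, while the remaining 19 were too dim on average. Of the 65 genes, 9 were higher and 6 lower in Flk1-positive cells. Across all genes tested, 12.2% were called higher and 17.5% lower, against 13.8% and 9.23% of the channel genes tested, so the share called higher was near the background. The median difference was -0.09 over the 65 channel genes and -0.08 over all genes tested. Of the 15 calls, Kcnj13 (higher) and Kcne1l (lower) had no group mean above background and are not followed further, which leaves 8 higher and 5 lower. Kcnj13 had signal values 26.5 and 34.2 in Flk1-positive cells, against 8.99 and 4.34 in WT embryos, and Kcne1l 7.83 and 5.36 in Flk1-positive cells and 46.1 and 33.7 in WT embryos. Over both directions 29.6% of all genes were called. By probe set, 13 of the 102 tested were higher and 11 lower, against 11.2% and 13.8% of all probe sets (25.1% in either direction).

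**Figure D1:**
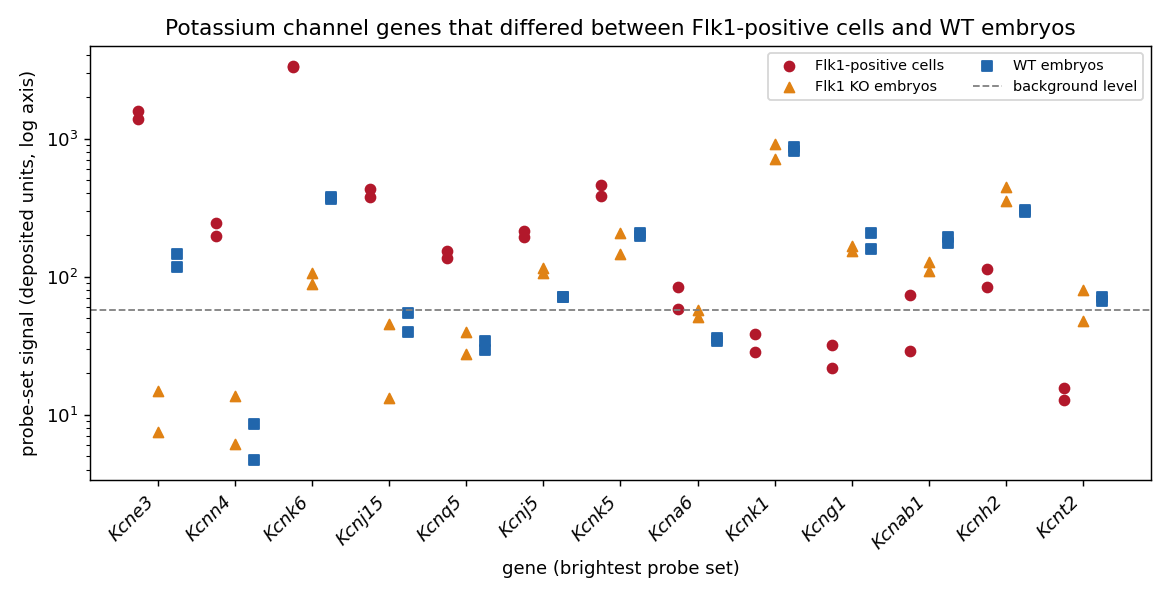
Signal of the 13 genes called between Flk1-positive cells and WT embryos and above background in at least 1 of these groups, with 1 point per array and a log axis. Circles are Flk1-positive cells, triangles Flk1 KO embryos, squares WT embryos and the dashed line the background level of 57.4. For the first 8 genes both Flk1-positive arrays lie above both WT arrays, and for the last 5 both lie below.

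Among the accessory subunits Kcne3 rose. It encodes a single-pass membrane subunit that holds Kcnq1 channels open in epithelia. Its signal was 1593 and 1377 in Flk1-positive cells, 14.8 and 7.46 in Flk1 KO embryos, and 146 and 117 in WT embryos. No array of one group overlapped with another group, and the KO arrays lay under background. The difference between Flk1-positive cells and WT embryos was 3.31 ± 0.19 (limma adjusted p = 0.000548), a 9.89-fold change on the same scale. The pore subunit Kcnq1 itself was above background only in Flk1-positive cells, with signal values 124 and 87.2 in Flk1-positive cells, 20.8 and 8.01 in Flk1 KO embryos, and 15.3 and 50.9 in WT embryos. Its arrays did not overlap with those of WT embryos, but the difference of 1.28 ± 0.38 did not pass (limma adjusted p = 0.0608).

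The tandem-pore-domain channel Kcnk6 had signal values 3370 and 3276 in Flk1-positive cells, 105 and 88.2 in Flk1 KO embryos, and 378 and 365 in WT embryos. The 3 groups were fully separate and all above background. Kcnk6, known as TWIK-2 and reported in vascular and immune cells, was 3.09 ± 0.14 above WT embryos in Flk1-positive cells, 8.50-fold on that scale (limma adjusted p = 0.000456). A second member of this subfamily, the acid-sensitive channel Kcnk5 (TASK-2), had signal values 384 and 463 in Flk1-positive cells, 146 and 207 in Flk1 KO embryos, and 206 and 198 in WT embryos. It rose by 0.99 ± 0.20 over WT embryos (limma adjusted p = 0.0198), a call lost when any 1 Flk1-positive or WT array was left out (adjusted p between 0.0502 and 0.0979).

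Calcium-activated channels were represented among the rises by Kcnn4, the intermediate-conductance channel of endothelial cells, red cells and leukocytes. Its signal was 244 and 196 in Flk1-positive cells, 6.10 and 13.6 in Flk1 KO embryos, and 8.60 and 4.67 in WT embryos, so that it was detected only in the Flk1-positive group. The rise over WT embryos was at least 3.81-fold (limma adjusted p = 0.000628). Its second probe set rose too, by 1.54 ± 0.20 (limma adjusted p = 0.00485). That probe set had 91.8 and 100 in Flk1-positive cells, 37.5 and 61.9 in Flk1 KO embryos, and 20.3 and 17.7 in WT embryos. The sums of the primitive erythroid markers and of the macrophage and megakaryocyte markers, given above, were also highest in Flk1-positive cells. The macrophage marker Cx3cr1 was not, with a mean signal of 46.6 there and 51.0 in WT embryos. The part of blood cells in the Kcnn4 value was not tested.

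Among inward rectifiers 2 genes rose. Kcnj15, a channel known from kidney and other epithelia, had signal values 375 and 433 in Flk1-positive cells, 13.1 and 45.2 in Flk1 KO embryos, and 39.6 and 54.5 in WT embryos. The rise over WT embryos was at least 7.02-fold (limma adjusted p = 0.00447). A second Kcnj15 probe set, with signal values 97.5 and 106 in Flk1-positive cells, against 14.2 and 18.1 in WT embryos, rose by 1.71 ± 0.20. Kcnj5, a subunit of the G protein-gated channel of the heart's pacemaker and atrial cells, had signal values 213 and 195 in Flk1-positive cells, 115 and 106 in Flk1 KO embryos, and 71.0 and 70.9 in WT embryos. The groups did not overlap, and the difference from WT embryos was 1.28 ± 0.13 (limma adjusted p = 0.00217). A second Kcnj5 probe set, below background in every group, differed by 0.30 ± 0.50 with no call, and with the median of both the difference was 0.79 (limma adjusted p = 0.0828). Kcnj11, the pore subunit of the ATP-sensitive channel and the brightest inward rectifier by the selection rule, differed by 0.43 ± 0.18 and did not pass (limma adjusted p = 0.15). Its signal was 634 and 578 in Flk1-positive cells, 491 and 566 in Flk1 KO embryos, and 511 and 388 in WT embryos.

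Voltage-gated pore subunits contributed Kcnq5 and Kcna6. Kcnq5, an M-type channel found in neurons and vascular muscle, had signal values 137 and 152 in Flk1-positive cells, 40.0 and 27.6 in Flk1 KO embryos, and 29.5 and 34.1 in WT embryos. It was at least 2.52-fold higher than in WT embryos (limma adjusted p = 0.0022). Kcna6 was near the background level throughout, with signal values 83.7 and 57.8 in Flk1-positive cells, 51.3 and 57.0 in Flk1 KO embryos, and 34.1 and 35.7 in WT embryos. Its call (0.70 ± 0.18, limma adjusted p = 0.0396) was lost under 12 of 16 alternative settings, with adjusted p-values from 0.0263 to 0.322.

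The promoters of Kcne3, Kcnn4, Kcnj15 and Kcnk1, which had large differences, are shown so that their sequences can be read beside the values, while Kcnk6, which rose by 3.09, had no match. RefSeq entries for build GRCm38.p6 were matched for 64 of the 84 genes, each covering 250 bases before to 50 after the annotated start, and both annotated starts of Kcne3 are given. Capitals mark AGGAAG, a core bound by ETS factors, on either strand. They also mark AGATAA, which a family of erythroid and endothelial zinc finger factors binds, on either strand. These motifs were chosen after the sequences were seen.
Kcne3, first start, chr7:100176420-100176719, plus strand: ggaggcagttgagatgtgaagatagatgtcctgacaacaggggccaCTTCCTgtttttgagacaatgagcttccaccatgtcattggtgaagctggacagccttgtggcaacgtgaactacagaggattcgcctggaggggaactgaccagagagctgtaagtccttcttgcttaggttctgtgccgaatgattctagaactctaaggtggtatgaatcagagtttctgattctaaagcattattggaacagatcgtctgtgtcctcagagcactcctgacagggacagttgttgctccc
Kcne3, second start, chr7:100178433-100178732, plus strand: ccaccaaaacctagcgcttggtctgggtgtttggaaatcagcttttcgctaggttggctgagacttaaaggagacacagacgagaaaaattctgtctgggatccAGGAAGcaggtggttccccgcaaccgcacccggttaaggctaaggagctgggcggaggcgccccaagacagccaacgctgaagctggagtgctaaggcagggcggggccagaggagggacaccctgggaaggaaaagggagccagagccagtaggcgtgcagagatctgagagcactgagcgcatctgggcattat
Kcnn4, chr7:24370013-24370312, plus strand: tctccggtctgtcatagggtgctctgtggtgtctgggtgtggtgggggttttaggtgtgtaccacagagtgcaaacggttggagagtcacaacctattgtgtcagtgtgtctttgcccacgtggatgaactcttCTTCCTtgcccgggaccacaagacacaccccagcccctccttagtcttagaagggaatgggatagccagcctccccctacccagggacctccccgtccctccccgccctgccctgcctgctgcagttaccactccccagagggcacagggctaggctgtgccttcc
Kcnj15, chr16:95257308-95257607, plus strand: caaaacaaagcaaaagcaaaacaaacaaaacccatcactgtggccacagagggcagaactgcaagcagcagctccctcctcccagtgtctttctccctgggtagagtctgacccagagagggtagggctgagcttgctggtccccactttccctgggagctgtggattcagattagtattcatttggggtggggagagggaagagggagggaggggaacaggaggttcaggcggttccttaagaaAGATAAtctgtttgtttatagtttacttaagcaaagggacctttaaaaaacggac
Kcnk1, chr8:125994852-125995151, plus strand: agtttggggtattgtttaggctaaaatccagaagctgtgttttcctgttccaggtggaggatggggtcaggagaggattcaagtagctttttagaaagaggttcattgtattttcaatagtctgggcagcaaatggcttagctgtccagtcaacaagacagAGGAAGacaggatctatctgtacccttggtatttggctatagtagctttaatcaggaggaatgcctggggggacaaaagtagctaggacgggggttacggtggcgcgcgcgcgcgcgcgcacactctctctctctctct
AGGAAG occurred 1 time in both Kcne3 promoters, in that of Kcnn4 and in that of Kcnk1, whose signal was lower in Flk1-positive cells, and AGATAA occurred 1 time in that of Kcnj15. Of all 32851 promoters of this length, 35.4% hold AGGAAG and 11.2% hold AGATAA, so these matches describe the windows only.

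The falls were led by Kcnk1, the tandem-pore-domain channel TWIK-1. Its signal was 28.4 and 38.6 in Flk1-positive cells, 716 and 907 in Flk1 KO embryos, and 872 and 815 in WT embryos. Both Flk1-positive arrays were below background while the embryo groups overlapped. Against WT embryos Kcnk1 was at least 14.7-fold lower (limma adjusted p = 0.000456), and its second probe set at least 4.98-fold lower (limma adjusted p = 0.00666). Kcnk1 and Kcnk6, members of the same structural branch of tandem-pore-domain channels, therefore had opposite calls. Neuroectoderm markers (10 genes) summed to 499 to 581 in Flk1-positive cells, 10501 to 10793 in Flk1 KO embryos and 10989 to 11203 in WT embryos, and gut endoderm markers (6 genes) to 2498 to 2641, 18830 to 21760 and 20295 to 21711 in the same order of groups. Cardiomyocyte markers were lowest in Flk1-positive cells too, and the part of any of these tissues in the Kcnk1 value was not tested.

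Kcng1 is a silent voltage-gated subunit that modifies Kcnb channels. It had signal values 32.0 and 21.7 in Flk1-positive cells, 153 and 168 in Flk1 KO embryos, and 206 and 157 in WT embryos, and was at least 3.14-fold lower than in WT embryos (limma adjusted p = 0.00165). Kcnh2, the hERG channel of heart repolarisation, remained above background in every group, with signal values 114 and 84.2 in Flk1-positive cells, 443 and 350 in Flk1 KO embryos, and 305 and 295 in WT embryos. It fell by 1.42 on the log2 scale relative to WT embryos (SE 0.19, limma adjusted p = 0.00541). The cardiomyocyte markers given above were lowest in Flk1-positive cells as well, and so were the neuroectoderm and gut endoderm markers. Somite and mesenchyme markers (6 genes) summed to 1574 to 1577 there, 7684 to 8857 in Flk1 KO embryos and 7311 to 8049 in WT embryos. These lists all ran the same way and single out no tissue. The part of any of these tissues in the Kcnh2 value was not tested.

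Kcnab1, a cytoplasmic beta subunit of Kcna channels, had signal values 73.2 and 28.9 in Flk1-positive cells, 109 and 128 in Flk1 KO embryos, and 176 and 193 in WT embryos. It was at least 3.21-fold lower than in WT embryos (limma adjusted p = 0.0186), a call lost without WT replicate 1 or 2 (adjusted p = 0.0804 and 0.0934). A second Kcnab1 probe set, above background in both embryo groups, was called lower too (-1.87 ± 0.15 against WT embryos, limma adjusted p = 0.00113). Against Flk1 KO embryos this probe set was called lower (-1.59 ± 0.15, limma adjusted p = 0.00161). The brightest had no call there (-1.02 ± 0.31, limma adjusted p = 0.0614). Kcnt2, a sodium-activated channel, had signal values 15.7 and 12.9 in Flk1-positive cells, 47.5 and 79.6 in Flk1 KO embryos, and 71.5 and 66.1 in WT embryos. It was at least 1.20-fold lower (limma adjusted p = 0.00925), and this call too was lost without either WT array (adjusted p = 0.0597 and 0.0511). Without WT replicate 1 or 2 the channel genes called lower numbered 3 in place of 6.

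By subfamily, 2 of 31 voltage-gated pore genes were called higher and 2 lower with a level above background, and 16 were above background in no group. Of 12 accessory subunit genes 1 was higher and 1 lower, of 15 inward rectifier genes 2 were higher, of 12 tandem-pore-domain genes 2 were higher and 1 lower, and of 11 calcium- or sodium-activated channel genes 1 was higher and 1 lower. In the same order of subfamilies 25, 9, 11, 10 and 8 genes were tested. Across all genes tested, 12.2% were called higher and 17.5% lower, and 71.7% of all named genes were above background in a group. The subfamily counts leave out the dim calls of Kcnj13 and Kcne1l, so they do not compare directly with those shares. None of the 3 non-coding RNAs was called by its brightest probe set in this comparison. Some genes above background had no call: Kcnip3, a calcium-binding partner of Kcnd channels, had signal values 89.4 and 118 in Flk1-positive cells, against 114 and 115 in WT embryos. Kcnmb4, a beta subunit of the large-conductance calcium-activated channel, had 173 and 82.8 in Flk1-positive cells and 246 and 239 in WT embryos, which did not overlap and did not pass (limma adjusted p = 0.101). Kcnk2, the mechanosensitive channel TREK-1, had 68.2 and 37.9 in Flk1-positive cells, 88.7 and 129 in Flk1 KO embryos, and 164 and 103 in WT embryos (-1.06 ± 0.31 against WT, limma adjusted p = 0.0598). The G protein-gated rectifiers Kcnj3 and Kcnj6, partners of Kcnj5, were above background in every group, and their Flk1-positive arrays overlapped with those of both embryo groups. Kcnj3 measured 112 and 65.9 in Flk1-positive cells, 77.9 and 92.8 in Flk1 KO embryos, and 107 and 97.0 in WT embryos, so its Flk1 KO and WT arrays did not overlap. Over the 65 genes tested, both Flk1-positive arrays lay above both WT arrays for 19 (29.2%, against 30.4% of all genes tested) and below both for 20 (30.8%, against 41.8%).

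**Figure D2:**
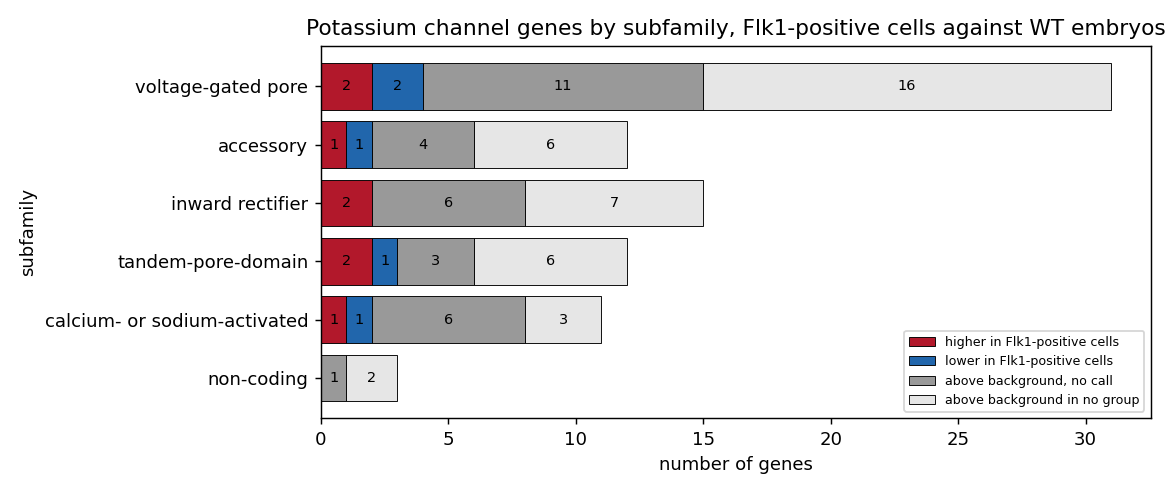
Number of genes in each potassium channel subfamily by their result in Flk1-positive cells against WT embryos: called higher, called lower, above background in a group without a call, or above background in no group. Of the 31 voltage-gated pore genes, 16 fall in the last class.

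The second comparison, Flk1 KO over WT embryos, asked which channels change when the receptor is missing. Among the genes tested only Kcnk6 was called, lower in Flk1 KO embryos by 1.74 on the log2 scale (SE 0.14, limma adjusted p = 0.0485), with the signals given above. The background was 0.132% of genes called lower and 0% called higher, so 1 of 65 is 1.54%, and by probe set 1 of 102, against 0.0664%. The call was lost under 12 of 17 alternative settings, among them leaving out any 1 of the 6 arrays (adjusted p between 0.193 and 0.414), and with a replicate block (adjusted p = 0.182), while the difference stayed between -1.89 and -1.35 under all settings. Kcne3 had the larger difference, -2.22 ± 0.19, with Flk1 KO arrays of 14.8 and 7.46 below WT arrays of 146 and 117. It missed the threshold (limma adjusted p = 0.054) and passed it under 4 of 17 alternative settings.

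The other genes with the widest differences above background had no call and overlapping arrays, except Kcnab2. Kcna2, a voltage-gated channel of axons, had signals of 66.3 and 6.91 in Flk1 KO embryos and 80.8 and 61.8 in WT embryos (-0.88 ± 0.52). Kcnab2, a beta subunit, had 57.2 and 58.4 in Flk1 KO embryos and 16.8 and 28.0 in WT embryos (0.86 ± 0.17, limma adjusted p = 0.275). Its Flk1 KO mean was close to the background level. A second Kcnab2 probe set, below background in every group, ran the other way without a call. It had 24.4 and 5.56 in Flk1 KO embryos and 67.3 and 35.6 in WT embryos (-1.01 ± 0.34). Kcnk7, a tandem-pore-domain protein without known current of its own, had 19.5 and 60.3 in Flk1 KO embryos and 82.95 and 54.5 in WT embryos (-0.62 ± 0.39). Limma called no channel gene higher here; with no adjustment, p fell under 0.05 for 3 of 65 genes that were higher and 2 that were lower, against 2.66% and 3.65% of all genes tested. Both Flk1 KO arrays lay above both WT arrays for 6 of 65 genes (9.23%, against 19.1% of all genes tested) and below them for 9 (13.8%, against 18.1%).

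The fall of Kcnk6 ran beside that of endothelial markers: all 10 had both Flk1 KO arrays below both WT arrays, and 4 of 10 were called lower. In whole embryos fewer cells of a type and less RNA per cell cannot be told apart. Among the other genes called higher in Flk1-positive cells, Kcne3 had the difference of -2.22 given above, and several had smaller ones. Kcnj5 differed by 0.51 ± 0.13 (limma adjusted p = 0.40, no call), with both Flk1 KO arrays above both WT arrays, and Kcnq5 (0.05 ± 0.16), Kcnk5 (-0.19 ± 0.20), Kcnj15 (-0.50 ± 0.33), Kcnn4 (0.15 ± 0.19) and Kcna6 (0.42 ± 0.18) had no call. The second Kcnn4 probe set differed by 0.79 ± 0.20 (limma adjusted p = 0.395, no call), with both Flk1 KO arrays above both WT arrays. Kcnq5, Kcnj15, Kcna6 and both Kcnn4 probe sets were below background in both embryo groups, while Kcnj5 and Kcnk5 were above it in both. For the dim genes these differences cannot show whether the knockout changed them. Kcnk1, low in Flk1-positive cells, differed by -0.06 ± 0.18. Whether the knockout affects these genes differently from Kcnk6 was not tested.

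Flk1-positive cells were also set against Flk1 KO embryos, where the endothelial markers summed lowest. Here 11 of 65 genes were higher and 6 lower, or 16.9% and 9.23%, against a background of 12.9% and 19.1% of all genes. With median centring the split was 10 higher and 9 lower. In either direction the background was 32%. By probe set 18 of 102 were higher and 11 lower, against 13.4% and 14.9% of all probe sets (28.3% in either direction). Both Flk1-positive arrays lay above both Flk1 KO arrays for 19 of 65 genes and below them for 19 (29.2% each, against 29.2% and 39.9% of all genes tested). Of the 17 called genes 16 were above background, and Kcne1l was again dim. Both comparisons of Flk1-positive cells use the same Flk1-positive arrays, so their calls are not independent. Kcne3 was at least 25.8-fold higher (limma adjusted p = 0.000182) and Kcnk6 4.82 ± 0.14 higher (limma adjusted p = 0.00016). Kcnq1, with the signals given above, passed here and was at least 1.82-fold higher (limma adjusted p = 0.0198), but not on leaving out Flk1-positive replicate 1 or either Flk1 KO array (adjusted p between 0.0549 and 0.0984).

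Kcnq1ot1, Kcnh3, Kcns2 and Kcna5 were called against Flk1 KO embryos and had no call against WT embryos, a contrast that was not tested itself. Kcnq1ot1, an imprinted RNA transcribed antisense from within Kcnq1, had signal values 365 and 378 in Flk1-positive cells, 147 and 235 in Flk1 KO embryos, and 259 and 225 in WT embryos (0.92 ± 0.23 against Flk1 KO, limma adjusted p = 0.0343). Kcna5, a voltage-gated channel of atrial and vascular muscle, had 69.3 and 63.0 in Flk1-positive cells, 226 and 134 in Flk1 KO embryos, and 112 and 135 in WT embryos (-1.16 ± 0.25 against Flk1 KO, limma adjusted p = 0.0222). Its call was lost without Flk1-positive replicate 1 or 2. Cardiomyocyte markers summed highest in Flk1 KO embryos, but none of them was called between Flk1 KO and WT embryos. Their part in the Kcna5 value was not tested. Kcnh3, a neuronal channel of the EAG family, differed from Flk1 KO embryos by 0.92 ± 0.24, and Kcns2, a silent subunit near background, by 0.65 ± 0.18 (limma adjusted p = 0.0409 and 0.0485). Both of these calls and that of Kcnq1ot1 ended when single arrays were left out, and with the median of its probe sets Kcnh3 differed by 0.54 (limma adjusted p = 0.303). Without Flk1-positive replicate 1 or 2, the channel genes called higher than in Flk1 KO embryos numbered 6 and 7 in place of 11.

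**Figure D3:**
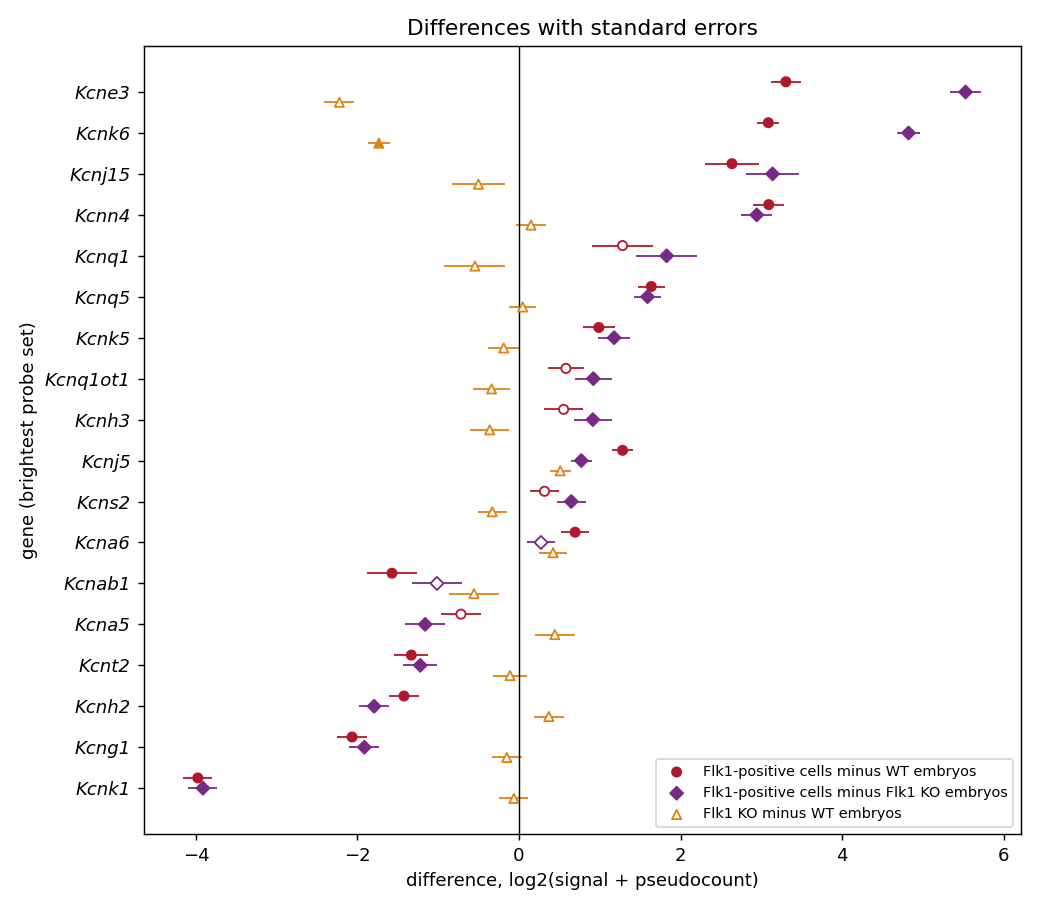
Difference with its standard error for the 18 genes called in any comparison and above background, on the log2(signal + 21.61) scale. Circles are Flk1-positive cells minus WT embryos, diamonds Flk1-positive cells minus Flk1 KO embryos and triangles Flk1 KO minus WT embryos, filled where called. The comparisons share arrays. Kcne3 and Kcnk6 have the largest negative values in Flk1 KO minus WT embryos, -2.22 and -1.74.

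Several probe sets per gene allowed a check of the brightest one. For 11 genes more than 1 probe set was above background and tested. In Flk1-positive cells against WT embryos these probe sets had the same sign for 10 of 11 genes and the same call for 8 of 11, and none had opposite calls. The exception in sign was Kcnd1, a fast voltage-gated channel, whose 3 probe sets ranged from -0.51 to 0.12 without a call. Calls differed within Kcnk5 (1 of 2 probe sets higher), Kcnq5 (2 of 3) and Kcnq1ot1 (1 of 3, the brightest not among them). All 3 Kcnq1ot1 probe sets were called higher in Flk1-positive cells than in Flk1 KO embryos, by 0.92 to 1.57. Between Flk1 KO and WT embryos they differed by -0.34, -1.03 and -0.96 with no call, so all 3 had the same sign. Against Flk1 KO embryos 9 of 11 genes had probe sets of 1 sign, the exceptions being Kcnd1 and Kcnip1, and 7 of 11 the same call. In Flk1 KO against WT embryos, where none of these probe sets was called, the sign was the same for 6 of 11 genes and differed within Kcnd1, Kcnh3, Kcnip1, Kcnk5 and Kcnq5. In Flk1-positive cells against Flk1 KO embryos calls differed within Kcnab1, Kcnd1, Kcnh3 and Kcnk5. Kcne3 and Kcnk6 each had a single probe set, so their values have no such check.

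**Figure D4:**
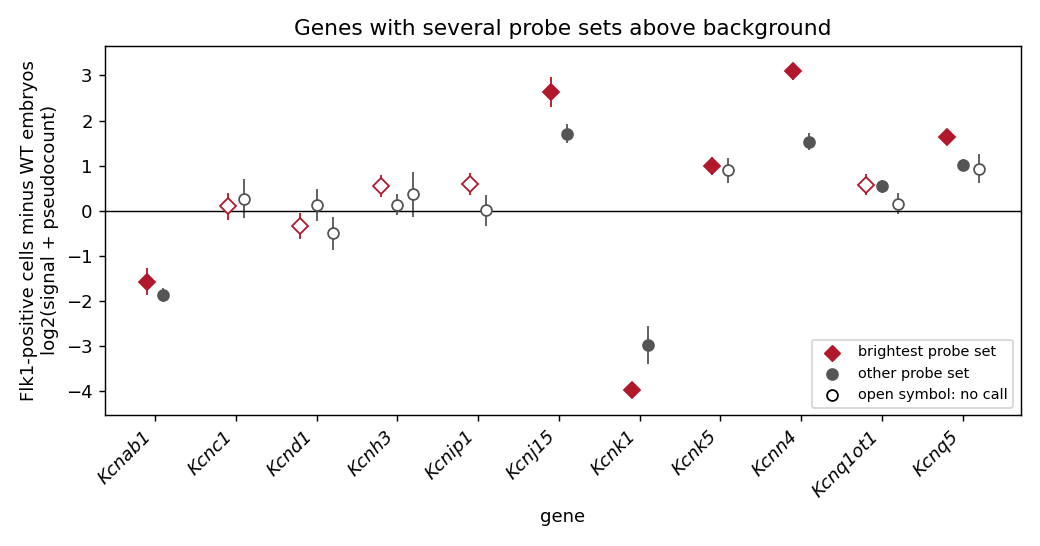
Difference between Flk1-positive cells and WT embryos with its standard error for each probe set of the 11 genes with several probe sets above background. Diamonds are the brightest probe set of a gene, circles the others, and open symbols have no call. For 10 of 11 genes all points lie on 1 side of 0.

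Other genes of potassium transport, and genes of other cation channels and store-operated calcium entry, were read from lists. These lists were drawn up for this comparison with earlier results known. Of 40 further potassium transport genes 33 were represented and 25 tested, and against WT embryos 6 were higher and 3 lower in Flk1-positive cells, where 12.2% of all genes were called higher and 17.5% lower. Fxyd5, a regulator of the sodium-potassium pump, was 3.64 ± 0.18 higher, the ion transport kinase Sgk1 2.27 ± 0.14 higher, and Abcc9, the sulphonylurea receptor that pairs with Kcnj11 or Kcnj8, at least 2.08-fold higher. The pump subunit Atp1b1 (-1.76 ± 0.21) and the potassium-chloride cotransporter Slc12a7 (-1.21 ± 0.13) were lower. For these 5 genes limma gave adjusted p-values of 0.000482 to 0.00434. Of 10 other cation channel and store-operated entry genes tested, 5 were higher and none lower (the same background applies to these), among them the store-operated channel Orai1 (1.75 ± 0.22), its sensor Stim1 (1.10 ± 0.17) and the mechanically gated channel Piezo1 (1.36 ± 0.16). Orai1 had signal values 1664 and 1643 in Flk1-positive cells, 455 and 303 in Flk1 KO embryos, and 521 and 434 in WT embryos. No gene of either list was called between Flk1 KO and WT embryos by limma, and 1 (Fxyd5) was lower at p under 0.05 without adjustment.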

How the data were processed

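Biotin-labelled total RNA was hybridised to Affymetrix arrays, per the labels' protocols. The authors deposited a linear signal per probe set, whose trimmed mean is 500.003 on every array and whose floor is 1. No source used here names the program behind it. The platform annotation supplied gene symbols, and all 84 had a match by gene ID among RefSeq genes.

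The pseudocount of 21.61 is the 25th percentile of all values, added before taking log2. Array medians lay within 0.147 on that scale, so no further normalization was applied. Of 45101 probe sets, 34621 with a mean signal at or above that percentile and no control status were tested with limma 3.58.1 in R 4.3.3 (lmFit, eBayes, all 6 arrays, group as the only term, 3 residual and 2.44 prior degrees of freedom, two-sided, Benjamini-Hochberg over all of them). The procedure was also run on simulated data with independent normal noise, in which only probe sets above the median level were changed. That run cannot show how the procedure performs on dim channel genes. The number of arrays limits the precision.

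Named genes were those called in any comparison with the brighter mean above background, the 5 widest differences where fewer than 5 passed, the brightest genes of each subfamily and those whose probe sets disagreed. Kcnip3, Kcnk2, Kcnj3, Kcnj6 and the genes named as below background were chosen after their values were seen, as were the genes whose promoters are printed. The non-coding RNAs were set apart from the channel subfamilies after their names were seen. The members, lists and tests were chosen with earlier results of these data known. Alternatives were the pseudocount, the filter, the scaling, the prior, the groups fitted, a replicate block, a fold limit, the probe set of a gene, the background level and leaving out each array. Plots used matplotlib 3.10.9 (Python 3.11.15).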

Additional observations from a re-analysis of the deposited data

How the results depend on the processing

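In Flk1-positive cells against WT embryos 8 of the 13 genes above background kept their call under every alternative in which they were tested, and against Flk1 KO embryos 8 of 16. The number of channel genes called stayed within 1.5 times in both (10 to 18 and 12 to 16 on leaving out single arrays), and 33 to 52 genes lay above other background levels. With the stricter filter, which left 27 channel probe sets to test, 13 probe sets were called against WT embryos in place of 24, and 16 against Flk1 KO embryos in place of 29. In Flk1 KO against WT embryos the count of 1 gene and 1 probe set became 0 with the smaller pseudocount, no filter, quantile normalization, median centring, only these groups fitted, a replicate block, and without any 1 array (0 to 0). It became 2 genes and 2 probe sets with the larger pseudocount, 2 genes and 3 probe sets with the stricter filter and with an intensity trend, and 2 genes with the median of all probe sets of a gene. That median also turned the sign of Kcna2 (0.27) and Kcnab2 (-0.075) in Flk1 KO against WT embryos and of Kcns2 (-0.022) in Flk1-positive cells against Flk1 KO embryos. In Flk1 KO against WT embryos the other tested probe sets of Kcna2 (0.38 and 0.41) and of Kcnab2 (-1.01) had the opposite sign to the brightest. These other probe sets were below background in every group. Why the probe sets of a gene differ was not tested. Where an array is left out, the lone array of its group is assumed to vary like the other groups. Over the probe sets tested, deviations of same-numbered arrays from their group means were hardly correlated (0.00 to 0.03). These values show no pattern over probe sets shared by same-numbered arrays. A correlation leaves out any shift common to all probe sets, and it cannot show whether the arrays were prepared in pairs. With the replicate block 14 genes in place of 15 and 16 in place of 17 were called in Flk1-positive cells against WT and against Flk1 KO embryos, and 0 in Flk1 KO against WT embryos. The array gives no depth, and genes near the background level of 57.4 are least certain.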
